A study of Danio rerio with 20 samples.

Results

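The genes described here are 47 enzymes of glutamate, aspartate, arginine and proline metabolism in zebrafish larvae. They are the Ensembl gene IDs that the study's list of metabolic genes places under the headings alanine, aspartate and glutamate metabolism or arginine and proline metabolism, less those that the list also places under the citric acid cycle, pyruvate, purine, pyrimidine, glycine-serine, glyoxylate, cysteine-methionine, folate, glycolysis, tryptophan or branched-chain amino acid headings, and less a few named urea cycle and GABA genes (gls2, glsb, gad1a, aldh5a1, cps1, otc, ass1, asl, arg1 and arg2). The 2 headings hold 98 IDs, the whole list holds 643, and 32512 genes were counted. All 47 passed the filter on low counts in every comparison. The list gives a symbol for 44 members and only an ID for 3. The members GLS2 (1 of 2) and ARG1 (1 of 2) stayed in because their symbols differ from those left out.

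Glutamate stands at the centre of these pathways. Glutaminases release it from glutamine, glutamate dehydrogenase and the aminotransferases exchange it with the citric acid cycle, and glutamate decarboxylases turn it into the inhibitory transmitter GABA. Proline, ornithine and arginine are joined to it through a shared intermediate, pyrroline carboxylate: proline dehydrogenase and ornithine aminotransferase make it, pyrroline carboxylate dehydrogenase oxidises it to glutamate, and pyrroline carboxylate reductases turn it back into proline. Arginine also feeds nitric oxide synthases, creatine and the polyamines. In mammals, glucocorticoids raise amino acid breakdown and aminotransferases in the liver.

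The study asked how far daily rhythms of transcription depend on glucocorticoids. It compared larvae mutant for the rx3 t25327 allele (rx3 strong), described as eyeless with far fewer pituitary corticotropes and with low cortisol that has no daily rhythm, larvae mutant for the rx3 t25181 allele (rx3 weak), described as eyeless with normal cortisol, and wild type siblings. A second set of rx3 strong and wild type larvae was kept in 25 µM dexamethasone (DEX), a synthetic glucocorticoid given at a constant dose. All larvae were 5 days old, kept in a light-dark cycle and pooled from several clutches, and the strain is labelled as a mix of TU, AB and WIK. The larvae labelled untreated received the DMSO vehicle according to the column names. RNA of pooled whole larvae was sequenced at zeitgeber times (ZT) 3, 9, 15 and 21 h, with 1 library for each group and time point, so the 5 groups hold 4 libraries each and the time points stand in for replicates.

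The untreated libraries held 16427280 to 22204708 counts and the DEX libraries 12586879 to 49738048. Values are given in CPM, counts scaled to the size of the library by edgeR's TMM method, set separately within the 12 untreated and the 8 DEX libraries. The DEX libraries were made with another kit, so a difference between an untreated and a DEX level cannot be told apart from the kit, and such levels are not compared. Among the DEX libraries 3 stood apart. The wild type ZT3 library was the shallowest, with 172 of 18884 genes more than 2-fold below every other DEX library. More than 2-fold above every other DEX library were 64 genes in the wild type ZT21 library, 45 in the rx3 strong ZT9 library and 43 in the wild type ZT3 library, against at most 24 in each of the rest. rx3 itself had 2.09 to 3.09 CPM in rx3 strong, 1.77 to 2.51 in rx3 weak and 4.41 to 7.14 in wild type larvae. Of 12 photoreceptor and lens markers 8 were matched by symbol, and all 8 were lower in both alleles: their summed level was 11.3 to 16.1 CPM in rx3 strong, 98 to 199.1 in rx3 weak and 2457 to 3085 in wild type larvae, so some eye transcript was left in rx3 weak. The 2 retinal markers also fell in both alleles. Of 6 liver markers 4 rose in rx3 strong and 2 in rx3 weak, and all 3 matched muscle markers rose in rx3 strong and 2 in rx3 weak. The 2 pituitary markers, growth hormone and prolactin, fell in rx3 strong and not in rx3 weak. The matched neuron marker, elavl3, did not pass the test in either allele, and of 3 pancreas markers 1 rose and 1 fell in rx3 strong while 3 rose in rx3 weak. In whole larvae, fewer cells of a type and less RNA per cell cannot be told apart.

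In rx3 strong larvae 9 of the 47 genes were higher and 9 lower than in wild type larvae. The test was edgeR's quasi-likelihood test with time point as a factor, at a Benjamini-Hochberg adjusted p under 0.05 over all genes. Later counts of level changes use it too unless another test is named. Rhythm tests have a cosine and sine in place of the time factor unless stated, and the choice of rhythm models gives no p-value. Over all 22845 genes tested, 8.4% were higher and 10.2% lower. In rx3 weak larvae 8 were higher and 4 lower, against 6.42% and 7.63% of all genes. Both comparisons share the wild type libraries. The median log2 change of the 47 genes was -0.01 in rx3 strong and 0.03 in rx3 weak, against 0.01 and 0.02 over all genes tested, so single genes moved in both directions and the medians were near 0. Among the genes called were a liver-type glutaminase and ornithine aminotransferase, both lower in rx3 strong, brain-type creatine kinase and a glutamate decarboxylase, lower in both alleles, neuronal nitric oxide synthase, higher in rx3 strong, and a collagen prolyl hydroxylase, higher in rx3 weak. Of the 18 calls in rx3 strong 10 also held under each of 9 alternatives, including leaving out each time point, and 6 of the 12 in rx3 weak did. The share of all called genes that held in this way was not counted.

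**Figure D1:**
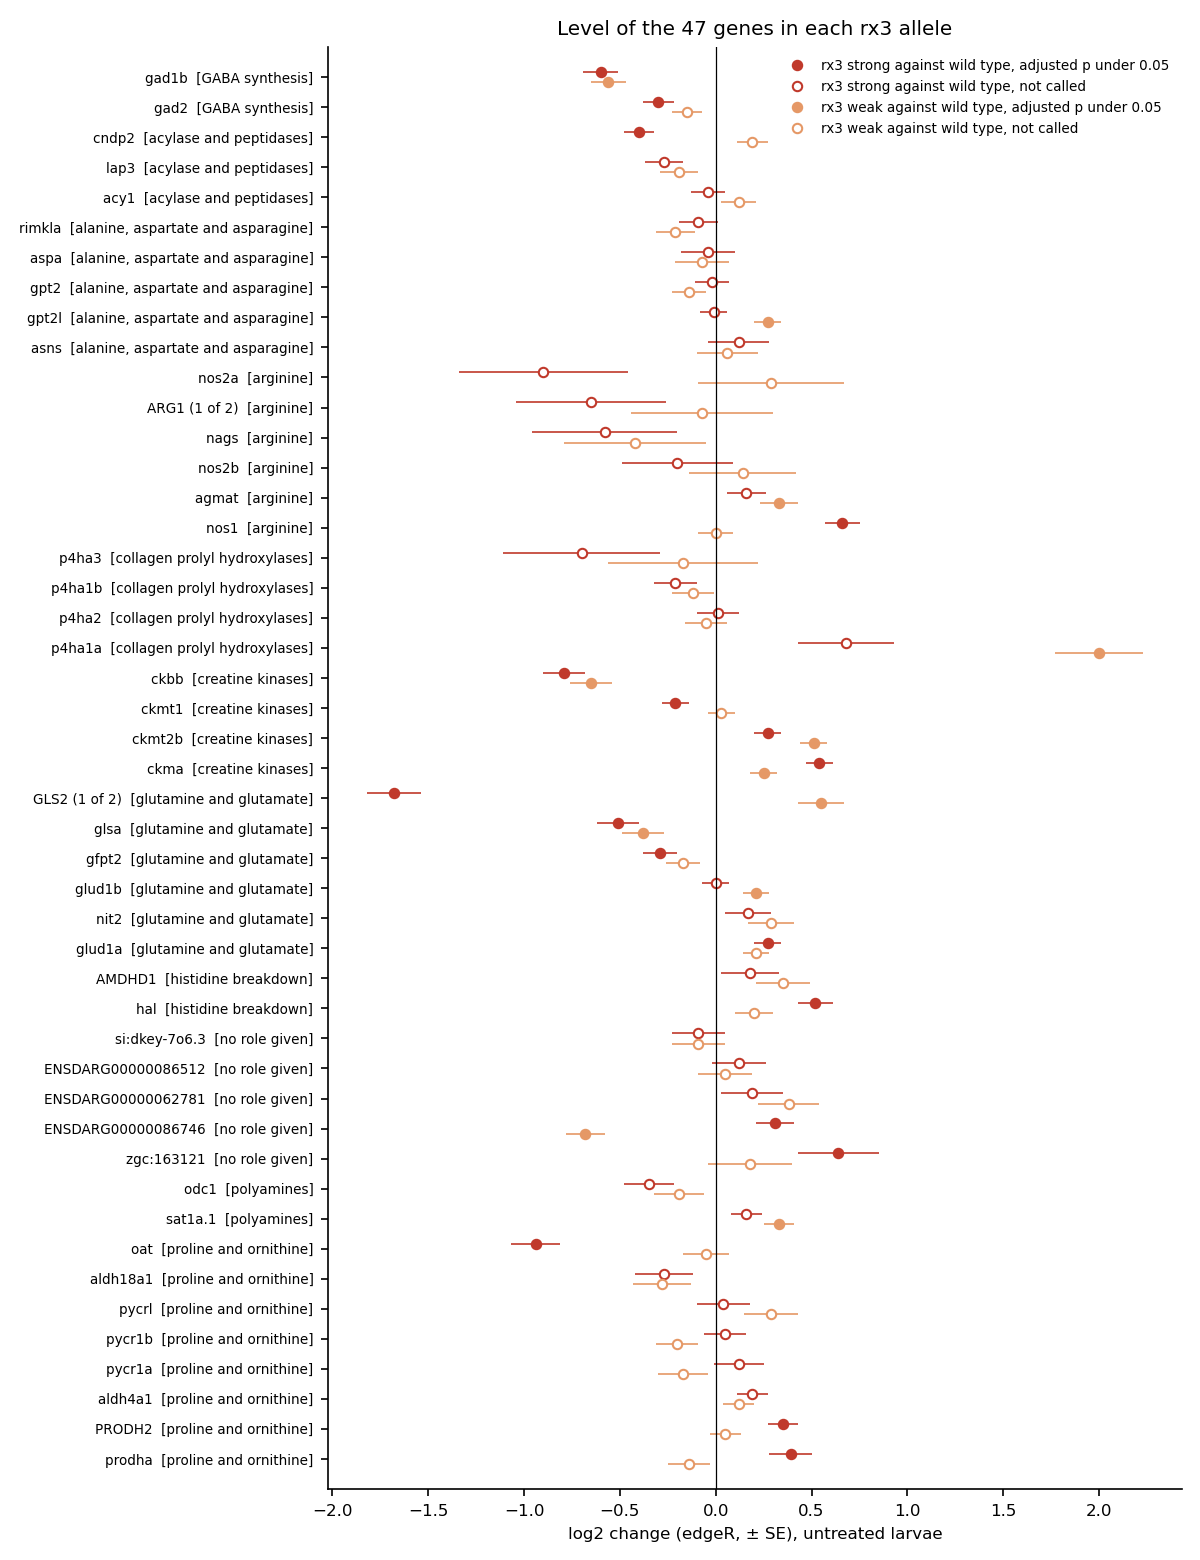
Log2 change (x axis, edgeR estimate ± SE) of each of the 47 genes (y axis, with its role) in untreated rx3 strong (red) and rx3 weak (orange) larvae against wild type larvae. Filled points have an adjusted p under 0.05: GLS2 (1 of 2) lies furthest to the left at -1.68 in rx3 strong, and p4ha1a furthest to the right at 2.0 in rx3 weak.

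Among the genes that make or use glutamate and glutamine, the glutaminase GLS2 (1 of 2) differed most between untreated rx3 strong and wild type larvae. GLS2 (1 of 2) (ENSDARG00000002917) is a homologue of mammalian GLS2, the glutaminase of liver. At ZT3, 9, 15 and 21 it had 2.92, 2.99, 3.83 and 5.76 CPM in rx3 strong, 14.3, 13.6, 22.5 and 21.2 in rx3 weak and 9.03, 10.0, 12.2 and 18.4 in wild type larvae. The rx3 strong libraries lay below all others, and the rx3 weak libraries were above the wild type library at each time point. The log2 change against wild type was -1.68 ± 0.14 in rx3 strong (SE, adjusted p = 2.7e-08), 3.20-fold lower, and 0.55 ± 0.12 in rx3 weak (adjusted p = 0.00356), and both calls held under every alternative. Of the 6 liver markers 4 were called higher in rx3 strong and 2 in rx3 weak. The summed level of all 6 was 5141 to 5689 CPM in rx3 strong, 3486 to 5664 in rx3 weak and 3226 to 4364 in wild type larvae. The part of liver in the GLS2 (1 of 2) differences was not tested.

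glsa, a kidney-type glutaminase, was lower in both alleles. It had 21.9, 19.4, 19.3 and 16.8 CPM in rx3 strong, 18.8, 23.5, 19 and 23.7 in rx3 weak and 25.9, 27.0, 27.2 and 30.4 in wild type larvae. Neither mutant overlapped wild type. The log2 change was -0.51 ± 0.11 in rx3 strong (adjusted p = 0.00218) and -0.38 ± 0.11 in rx3 weak (adjusted p = 0.0207), and the call in rx3 weak was lost in 2 of the 4 fits without a time point. The third glutaminase ID, ENSDARG00000062781, named glsl in a reference table of gene names, had 1.50 to 6.45 CPM over all 20 libraries and passed no test.

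Glutamate dehydrogenase interconverts glutamate and oxoglutarate in mitochondria. glud1a had 108.7, 114.0, 114.5 and 115.9 CPM in rx3 strong, 108.9, 108.2, 112.6 and 103.6 in rx3 weak and 99.5, 100.7, 88.5 and 86.8 in wild type larvae, and passed the test in rx3 strong (log2 change 0.27 ± 0.07, adjusted p = 0.0127, lost in 2 of 4 fits without a time point) but not in rx3 weak (0.21 ± 0.07, adjusted p = 0.0675). Its copy glud1b passed in rx3 weak (0.21, adjusted p = 0.047), a call lost without any 1 of the time points. gfpt2, which uses glutamine to start hexosamine synthesis, had 27.2, 24.5, 24.9 and 21 CPM in rx3 strong, 33.6, 28.4, 21.2 and 23.8 in rx3 weak and 34.9, 32.5, 27.5 and 25.4 in wild type larvae. Its log2 change in rx3 strong was -0.29 ± 0.09 (adjusted p = 0.0343), a call lost in 3 of 4 fits without a time point. nit2, an amidase of glutamine breakdown products, passed no test.

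Of the glutamate decarboxylases, which make GABA, gad1b was lower in both alleles, gad2 was lower in rx3 strong and zgc:163121 was higher in rx3 strong. gad1b had 97.4, 108.4, 117.8 and 99.0 CPM in rx3 strong, 95.3, 108.7, 112.0 and 118.5 in rx3 weak and 157.0, 158.9, 142.1 and 181.6 in wild type larvae. All mutant libraries lay below all wild type libraries. The log2 change was -0.60 ± 0.09 in rx3 strong (adjusted p = 5.54e-05) and -0.56 ± 0.09 in rx3 weak (adjusted p = 0.000132), and between the alleles it was -0.04 ± 0.09 (adjusted p = 0.862). gad2 had 153.6, 148.0, 151.6 and 144.8 CPM in rx3 strong, 146.6, 179.6, 168.9 and 171.2 in rx3 weak and 158.6, 196.5, 190.4 and 194.1 in wild type larvae. It passed the test in rx3 strong (-0.30 ± 0.08, adjusted p = 0.00907, lost in 2 of 4 fits without a time point) and not in rx3 weak (-0.15 ± 0.08, adjusted p = 0.223). Direct comparison of the alleles gave -0.15 ± 0.08 for gad2 (rx3 strong against rx3 weak, adjusted p = 0.242). zgc:163121, named gad3 in the reference table, went the other way at a low level: 5.83, 7.84, 7.36 and 3.86 CPM in rx3 strong, 4.79, 4.17, 4.05 and 5.13 in rx3 weak and 4.84, 3.90, 2.81 and 4.48 in wild type larvae. It was higher in rx3 strong at 3 of 4 time points (0.64 ± 0.21, adjusted p = 0.0426), a call lost in 3 of 4 fits without a time point. GABA neurons are found in retina and brain. The eye markers fell with gad1b and glsa in both alleles, and their part in these differences was not tested.

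Ornithine aminotransferase, oat, links ornithine to pyrroline carboxylate. It had 16, 15, 14.8 and 12.2 CPM in rx3 strong, 31.8, 28.6, 20.9 and 26.9 in rx3 weak and 38.2, 21.5, 24.8 and 28.2 in wild type larvae. All rx3 strong libraries were below all other untreated libraries, and rx3 weak overlapped wild type. The log2 change was -0.94 ± 0.13 in rx3 strong (adjusted p = 2.12e-05), 1.91-fold lower, and -0.05 ± 0.12 in rx3 weak (adjusted p = 0.847). Against rx3 weak, oat was lower in rx3 strong by a log2 change of -0.89 ± 0.12 (adjusted p = 6.72e-05).

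Of the 3 IDs of proline dehydrogenases, which start proline breakdown, 2 were called higher in rx3 strong. prodha, as the study's list names ENSDARG00000044804, had 49.5, 29.4, 22.7 and 59.2 CPM in rx3 strong, 37.0, 19.8, 12.3 and 47.4 in rx3 weak and 34.6, 17.9, 17.5 and 59.1 in wild type larvae (log2 change in rx3 strong 0.39 ± 0.11, adjusted p = 0.0204, lost in 2 of 4 fits without a time point). ENSDARG00000086746 has only an ID in the list, and the reference table gives it the name prodha. It had 31.3, 18.4, 14.4 and 39.6 CPM in rx3 strong, 16.4, 9.19, 5.84 and 22.5 in rx3 weak and 22.4, 14.3, 11.1 and 38.1 in wild type larvae. The 3 genotypes kept the same order at each time point, with rx3 strong highest and rx3 weak lowest. Its log2 change against wild type was 0.31 ± 0.10 in rx3 strong (adjusted p = 0.0360, lost in 3 of 4 fits without a time point) and -0.68 ± 0.10 in rx3 weak (adjusted p = 0.000121). Between the alleles it was 0.99 ± 0.10 (rx3 strong against rx3 weak, adjusted p = 1.86e-06). How reads were divided between these IDs depends on the annotation and was not examined. A further ID, ENSDARG00000086512, named prodhb in the reference table, had 5.17 to 8.15 CPM in the untreated libraries and passed no level test.

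PRODH2, a homologue of mammalian hydroxyproline dehydrogenase, had 29.8, 34.3, 42.3 and 34.2 CPM in rx3 strong, 26.9, 27.7, 34.2 and 25.4 in rx3 weak and 24.7, 28.2, 31.4 and 25.8 in wild type larvae. It was above wild type at all 4 time points in rx3 strong (0.35 ± 0.08, adjusted p = 0.00408) and not called in rx3 weak (0.05 ± 0.08, adjusted p = 0.749). The other genes of proline metabolism passed no level test in the untreated larvae. These are aldh4a1, which oxidises pyrroline carboxylate to glutamate, aldh18a1, which makes it from glutamate, and the reductases pycr1a, pycr1b and pycrl.

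The 4 collagen prolyl hydroxylase subunits modify proline in collagen after translation, and 1 of them changed. p4ha1a had 2.22, 2.66, 1.29 and 3.0 CPM in rx3 strong, 6.27, 6.98, 5.33 and 3.88 in rx3 weak and 1.45, 1.68, 1.01 and 1.53 in wild type larvae. These are low levels, resting on 68 to 139 counts a library in rx3 weak and 19 to 29 in wild type larvae. The rx3 weak libraries lay above all others, and the log2 change against wild type was 2.0 ± 0.23 in rx3 weak (adjusted p = 3.49e-06) and 0.68 ± 0.25 in rx3 strong (adjusted p = 0.0653). p4ha1a was lower in rx3 strong than in rx3 weak (-1.32 ± 0.21, adjusted p = 0.000303). p4ha1b, p4ha2 and p4ha3 passed no level test.

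Among the genes that use arginine, nos1, which makes nitric oxide in neurons and muscle, was higher in rx3 strong alone. It had 23.0, 21, 20.1 and 22.9 CPM in rx3 strong, 13.5, 14, 12.3 and 15.3 in rx3 weak and 14.2, 14.6, 12.5 and 13.9 in wild type larvae. The rx3 strong libraries lay above all others and the other genotypes overlapped. The log2 change against wild type was 0.66 ± 0.09 in rx3 strong (adjusted p = 3.95e-05), 1.58-fold higher, and 0.00 ± 0.09 in rx3 weak (adjusted p = 0.986). Against rx3 weak it was 0.66 ± 0.09 (adjusted p = 6.06e-05). agmat, a homologue of agmatinase, which turns the arginine product agmatine into putrescine, had 18.9, 16.8, 22.2 and 22.1 CPM in rx3 weak, 17.3, 16.2, 17 and 20.9 in rx3 strong and 14, 14, 15.4 and 20.8 in wild type larvae. Its call in rx3 weak (0.33 ± 0.10, adjusted p = 0.0300) was lost in 3 of 4 fits without a time point. The inducible synthases nos2a and nos2b, ARG1 (1 of 2) and nags, which makes the activator of the urea cycle, stayed at or below 2.28 CPM in every untreated library and passed no level test.

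The creatine kinases buffer ATP through creatine, which is made from arginine and glycine. All 4 passed a test in at least 1 allele, in differing directions. ckbb, the brain-type enzyme, which is also abundant in photoreceptors, had 295.9, 261.6, 243.4 and 270.8 CPM in rx3 strong, 313.5, 320.9, 236.7 and 318.4 in rx3 weak and 595.6, 481.2, 282.4 and 548.2 in wild type larvae. It was lower at all 4 time points in both alleles, and the wild type library at ZT15 alone overlapped the mutants. The log2 change was -0.79 ± 0.11 in rx3 strong (adjusted p = 2.67e-05) and -0.65 ± 0.11 in rx3 weak (adjusted p = 0.000272). The eye markers fell in both alleles with ckbb, and their part in this difference was not tested.

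ckma, the muscle enzyme, had 4447, 4516, 4909 and 5267 CPM in rx3 strong, 3672, 3901, 3948 and 4198 in rx3 weak and 3341, 3393, 3137 and 3300 in wild type larvae. No genotype overlapped another, and the order was rx3 strong, rx3 weak, wild type. The log2 change was 0.54 ± 0.07 in rx3 strong (adjusted p = 3.24e-05) and 0.25 ± 0.07 in rx3 weak (adjusted p = 0.0286, lost in 3 of 4 fits without a time point). ckmt2b, the mitochondrial enzyme of muscle, had 476.9, 506.0, 455.1 and 571.8 CPM in rx3 strong, 609.8, 583.9, 586.2 and 586.6 in rx3 weak and 440.9, 398.9, 394.2 and 426.9 in wild type larvae. It was highest in rx3 weak, with a log2 change of 0.51 ± 0.07 (adjusted p = 6.09e-05), and 0.27 ± 0.07 in rx3 strong (adjusted p = 0.0137, lost in 2 of 4 fits without a time point). The muscle markers summed to 20886 to 22696 CPM in rx3 strong, 17179 to 19072 in rx3 weak and 15572 to 15849 in wild type larvae, in the order of ckma, and their part was not tested. ckmt1, the mitochondrial enzyme of other tissues, had 245.5, 261.9, 234.8 and 254.8 CPM in rx3 strong, 305.7, 300.3, 291.4 and 281.3 in rx3 weak and 302.9, 317.4, 274.6 and 262.6 in wild type larvae, a log2 change of -0.21 ± 0.07 in rx3 strong (adjusted p = 0.0423, lost in 3 of 4 fits without a time point). Per kilobase of gene length, ckma averaged 2079 CPM in wild type larvae, against 561.9 for ckbb, 294.4 for ckmt2b and 207.5 for ckmt1.

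**Figure D2:**
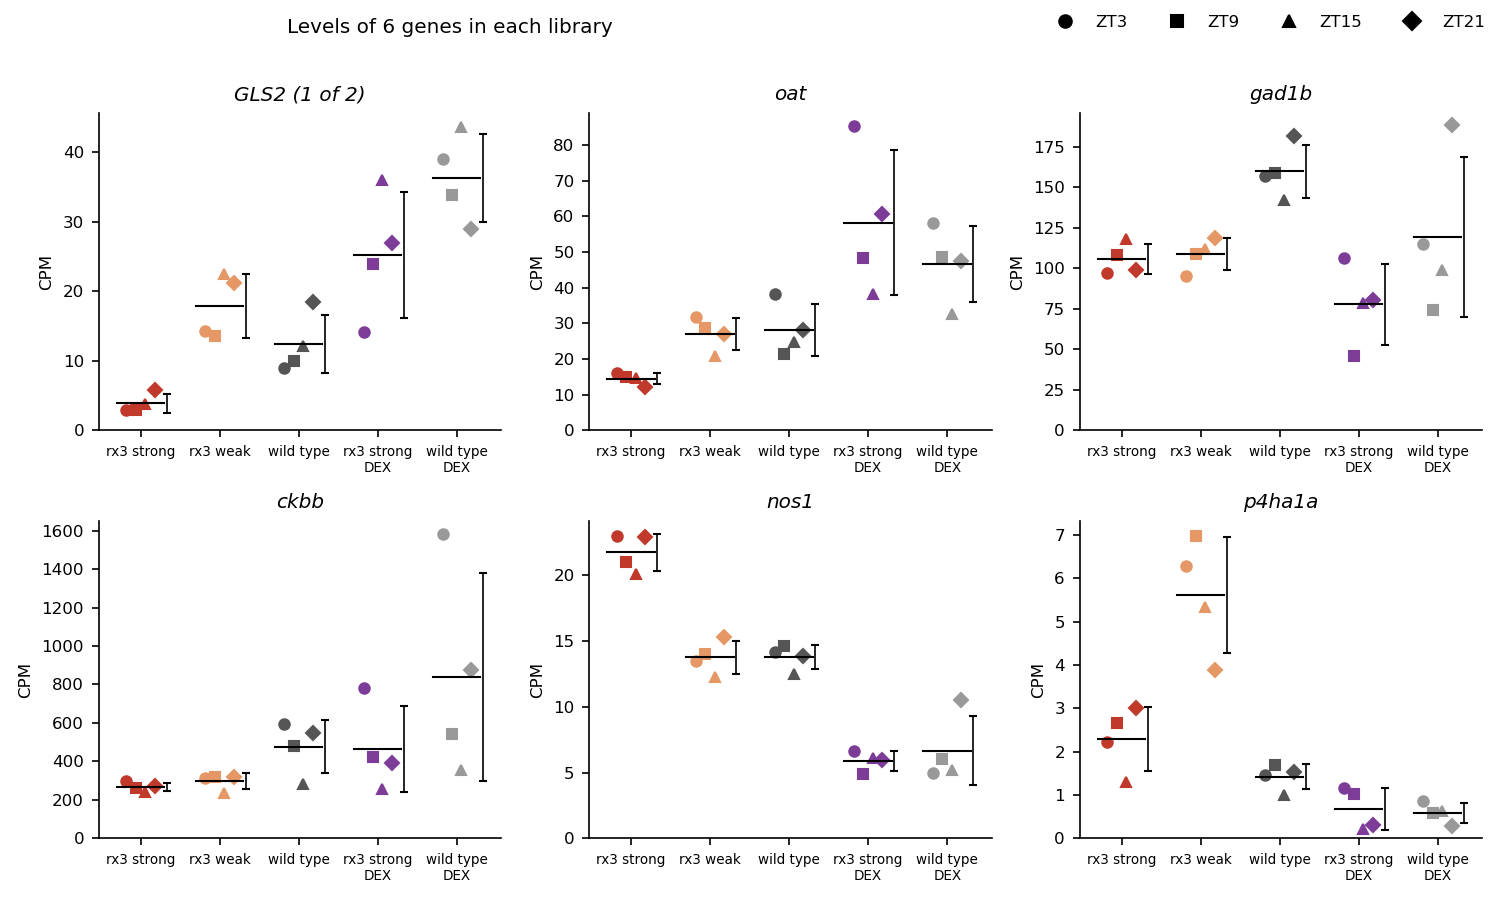
CPM (y axis, from 0) of 6 genes in each of the 20 libraries, by group (x axis). Symbols give the time point, bars the mean of 4 libraries and brackets the SD. GLS2 (1 of 2) and oat are lowest in untreated rx3 strong, gad1b and ckbb are lower in both alleles than in wild type larvae, nos1 is higher in rx3 strong than in the other untreated groups, and p4ha1a is highest in rx3 weak. Untreated and DEX levels differ in kit and are not to be compared.

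The polyamine genes are odc1, the rate-limiting decarboxylase of ornithine, and sat1a.1, an acetyltransferase that starts polyamine breakdown. odc1 had 24, 23.9, 28.5 and 22.4 CPM in rx3 strong, 30.5, 23.2, 23.7 and 33.4 in rx3 weak and 37.6, 29.5, 34.8 and 24.8 in wild type larvae and was not called in the untreated larvae (rx3 strong -0.35 ± 0.13, adjusted p = 0.0720). sat1a.1 had 266.8, 311.9, 311.1 and 227.9 CPM in rx3 weak, 216.1, 256.2, 253.3 and 265.1 in rx3 strong and 198.7, 247.6, 229.2 and 214.2 in wild type larvae, with a call in rx3 weak (0.33 ± 0.08, adjusted p = 0.0116, lost in 3 of 4 fits without a time point).

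The alanine aminotransferases gpt2 and gpt2l pass nitrogen between glutamate and alanine. gpt2l had 172.5, 153.0, 119.1 and 137.1 CPM in rx3 weak, 134.0, 119.3, 110 and 115.1 in rx3 strong and 140.8, 123.0, 107.2 and 111.3 in wild type larvae, and was called in rx3 weak (0.27 ± 0.07, adjusted p = 0.0155, lost in 3 of 4 fits without a time point). gpt2 did not differ between untreated genotypes beyond the spread (rx3 strong -0.02 ± 0.09, adjusted p = 0.915). asns, which makes asparagine, aspa, which cleaves acetylaspartate, and rimkla, which joins acetylaspartate to glutamate, passed no level test.

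Of the acylase and peptidases, cndp2, a dipeptidase, had 78.2, 76.9, 59.9 and 77.1 CPM in rx3 strong, 142.2, 102.2, 89.6 and 109.2 in rx3 weak and 113.4, 103.4, 70.6 and 102.6 in wild type larvae. It was lower in rx3 strong than in wild type at all 4 time points (-0.40 ± 0.08, adjusted p = 0.00169) and lower than in rx3 weak without overlap (-0.59 ± 0.08, adjusted p = 5.69e-05). acy1, an acylase that frees amino acids, and lap3, a leucine aminopeptidase, were not called. hal, the ammonia lyase that starts histidine breakdown to glutamate, had 39.9, 32.2, 39.3 and 38.1 CPM in rx3 strong, 34.1, 29.5, 32.0 and 24.8 in rx3 weak and 25.7, 27.7, 28.8 and 22.2 in wild type larvae. The rx3 strong libraries lay above all wild type libraries (0.52 ± 0.09, adjusted p = 0.000601), and in rx3 weak the log2 change was 0.20 ± 0.10 (adjusted p = 0.185). AMDHD1, a later enzyme of histidine breakdown, and si:dkey-7o6.3, named paox1 in the reference table, were not called.

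The alleles were also compared directly, since the study describes both as eyeless and only rx3 strong as low in cortisol. The alleles differed in markers too. The photoreceptor and lens markers summed to 98 to 199.1 CPM in rx3 weak and 11.3 to 16.1 in rx3 strong. The pituitary markers were called lower than in wild type larvae in rx3 strong alone, and the liver, muscle and pancreas calls differed. The part of these tissues was not tested. In rx3 strong 6 of the 47 genes were higher and 7 lower than in rx3 weak, against 4.68% and 7.08% of all genes. The median log2 change was -0.13, against 0.00 over all genes tested. Higher in rx3 strong were ENSDARG00000086746, prodha (0.54 ± 0.11, adjusted p = 0.00334), nos1, hal (0.32 ± 0.09, adjusted p = 0.0328), PRODH2 (0.30 ± 0.08, adjusted p = 0.0174) and ckma (0.28 ± 0.07, adjusted p = 0.0165). Lower were GLS2 (1 of 2) (-2.23 ± 0.13, adjusted p = 1.12e-09), p4ha1a, oat, cndp2, gpt2l, ckmt1 and ckmt2b. The last 3 changed by -0.27, -0.24 and -0.24, and for each the call was lost in 3 of 4 fits without a time point. The same held for hal and PRODH2, while the call for ckma was lost in all 4. With the wild type libraries left out of the fit, 7 of the 47 genes were called, and 1985 of all 22511.

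Under constant DEX, 1 of the 47 genes was higher and 2 were lower in rx3 strong than in wild type larvae, against 3.4% and 4.4% of all 23411 genes tested. The median log2 change was 0.01 over the 47 genes and over all genes. odc1 had 75.6, 96.7, 64.5 and 37.0 CPM in rx3 strong and 139.6, 171.5, 100 and 133.2 in wild type larvae at ZT3, 9, 15 and 21, without overlap, a log2 change of -1.04 ± 0.19 (adjusted p = 0.00915). This call held without each time point and without each of the 3 libraries that stood apart. limma on the authors' log2 values gave an adjusted p of 0.0950.

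ckbb had 779.4, 421.9, 255.3 and 393.9 CPM in rx3 strong and 1583, 540.8, 354.3 and 873.3 in wild type larvae under DEX, lower at all 4 time points (-0.75 ± 0.17, adjusted p = 0.0255). The highest value is the shallow wild type ZT3 library, without which the change was -0.63 (adjusted p = 0.104), and the call was also lost without the wild type ZT21 library (-0.60, adjusted p = 0.067) and without any 1 of the time points. All 8 photoreceptor and lens markers were lower in rx3 strong under DEX too, with a summed level of 6.59 to 9.03 CPM in rx3 strong and 2194 to 3693 in wild type larvae, and their part was not tested. gpt2 had 40.6, 31.1, 29.8 and 42.7 CPM in rx3 strong and 19.9, 19.1, 20.8 and 31.3 in wild type larvae under DEX, higher at all 4 time points (0.67 ± 0.13, adjusted p = 0.0135). Without the rx3 strong ZT9 library the change was 0.66 (adjusted p = 0.0594), and without ZT9 in both genotypes the call was also lost (adjusted p = 0.0540). limma on the authors' log2 values called 0 of the 47 genes here, and the DESeq2 test called 4. Over all genes limma called 615 of 25590 and the DESeq2 test 2372 of 23790.

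Whether the difference between rx3 strong and wild type itself differed with DEX was tested as an interaction over 16 libraries. It was called for 2 of the 47 genes, both positive, against 1.41% positive and 0.815% negative of all 23546 genes. The DESeq2 test and the fit without a count filter each called 3 positive and 1 negative, and 861 of 21602 and 751 of 32223 genes in all. oat had 85.3, 48.3, 38.2 and 60.7 CPM in rx3 strong and 58.0, 48.6, 32.5 and 47.4 in wild type larvae under DEX, where rx3 strong was not called (0.29 ± 0.13, adjusted p = 0.238), against -0.94 without DEX. The interaction was 1.19 ± 0.19 on the log2 scale (adjusted p = 0.00492) and held without each time point and without each of the 3 libraries that stood apart. With limma on the authors' log2 values it was 1.21 (adjusted p = 0.0551).

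For gpt2 the interaction was 0.66 ± 0.16 (adjusted p = 0.0450), and it was lost without any 1 time point (adjusted p up to 0.286) and without the rx3 strong ZT9 library (0.65, adjusted p = 0.106). GLS2 (1 of 2) had 14.1, 23.9, 36.0 and 27.0 CPM in rx3 strong and 39.0, 33.8, 43.6 and 28.9 in wild type larvae under DEX. It was lower in rx3 strong at all 4 time points without passing the test (-0.56 ± 0.21, adjusted p = 0.156), and the interaction missed the threshold (1.09 ± 0.27, adjusted p = 0.0511). ckma was close on the other side (-0.82 ± 0.20, adjusted p = 0.0511), with 7256, 5231, 4319 and 5467 CPM in rx3 strong and 10944, 6481, 5766 and 4529 in wild type larvae under DEX. nos1, raised in untreated rx3 strong, had 6.63, 4.88, 6.11 and 5.93 CPM in rx3 strong and 4.95, 6.07, 5.17 and 10.5 in wild type larvae under DEX (interaction -0.83 ± 0.24, adjusted p = 0.101). gad1b, lower in both eyeless alleles, had 106.6, 45.7, 78.3 and 80.3 CPM in rx3 strong and 115.0, 74.2, 98.7 and 188.7 in wild type larvae under DEX (-0.59 ± 0.17, adjusted p = 0.0756), and its interaction was -0.02 ± 0.22 (adjusted p = 0.984).

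**Figure D3:**
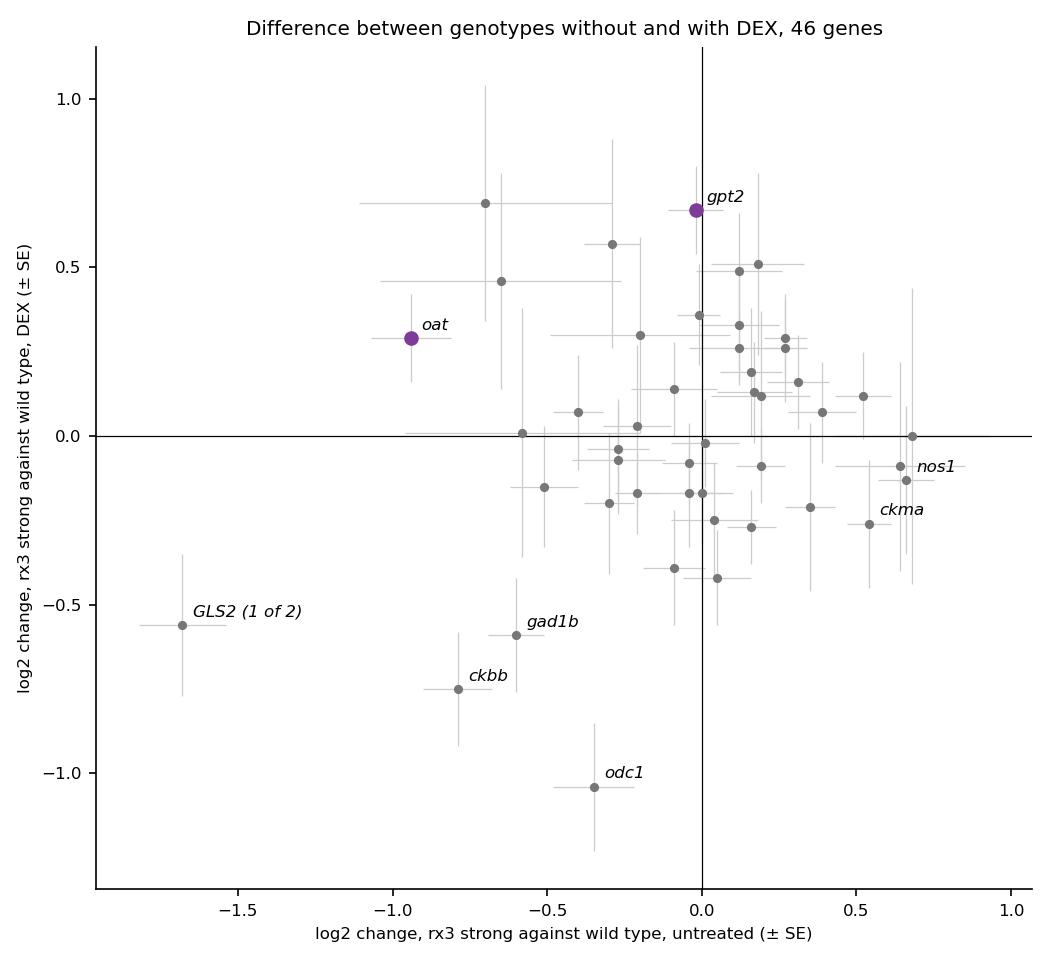
Log2 change between rx3 strong and wild type larvae in the untreated (x axis) and the DEX libraries (y axis), each ± SE, for 46 of the 47 genes (nos2a, which rests on 1 DEX library, is left out). Purple points, oat and gpt2, passed the test of the interaction; oat lies at -0.94 and 0.29, gpt2 at -0.02 and 0.67.

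nos2a, the inducible nitric oxide synthase, was high in a single library. Under DEX it had 1.12, 114.7, 2.95 and 0.344 CPM in rx3 strong at ZT3, 9, 15 and 21, with 5497 counts in the ZT9 library, and 0.286, 0.850, 1.53 and 0.294 in wild type larvae. The fitted change between genotypes under DEX, 3.18 ± 1.15 on the log2 scale, was not called (adjusted p = 0.143). The same ZT9 library had the highest gfpt2 level of the DEX libraries, with 30.6, 103.5, 48.4 and 27.2 CPM in rx3 strong and 11.1, 37.4, 63.6 and 30.3 in wild type larvae under DEX.

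A common 24 h rhythm, tested as a cosine and sine shared by the 3 untreated genotypes, was called for 17 of the 47 genes, against 16.7% of all 22391 genes tested. Their peak-to-trough range ran between 0.41 and 1.84 on the log2 scale with a median of 0.60, against 0.74 for all 3730 genes called. The largest range was that of nos2a, from 3 to 29 counts a library, and the next was 1.81 for prodha. The fitted peak fell between ZT0 and ZT6 for 10 of the 17, between ZT18 and ZT24 for 5, and at other times for rimkla and PRODH2. Of all genes called, 40.9% peaked between ZT0 and ZT6 and 19.4% between ZT18 and ZT24. The 4 time points cover a single day, so no rhythm was seen to repeat. A change with time of day cannot be told apart from a change with larval age or between samplings. The test assumes 1 rhythm for all genotypes and does not show that they share it. The choice of rhythm models gave some of the 17, such as prodha and cndp2, 1 shared rhythm. It gave gpt2 a separate rhythm in each genotype, rimkla another rhythm in wild type than in the mutants, and asns and p4ha1b none in wild type larvae.

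The smallest p of the 47 genes belonged to prodha and ENSDARG00000086746, while ENSDARG00000086512 had no call (adjusted p = 0.668). prodha ranged 3.5-fold between peak and trough (1.81 on the log2 scale, adjusted p = 3.51e-05) and ENSDARG00000086746 ranged 3.34-fold (1.74, adjusted p = 6.83e-05). Both peaked at ZT 23.8 in the fit, and in each genotype the ZT21 library was highest and the ZT15 library lowest. aldh4a1, the next enzyme of proline breakdown, peaked at ZT 4.1 with a smaller range (0.60, adjusted p = 0.0015). It had 70.5, 65.3, 54.9 and 66.8 CPM in rx3 strong, 76.6, 67.0, 48.0 and 56.6 in rx3 weak and 68.6, 65.7, 42.2 and 52.4 in wild type larvae, lowest at ZT15 in all 3 genotypes.

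gpt2 had 28.1, 22.5, 16.7 and 21.7 CPM in rx3 strong, 29.7, 21.7, 14.4 and 17.3 in rx3 weak and 27.5, 25.2, 17.6 and 20.0 in wild type larvae, with a peak at ZT 4.1 (0.85, adjusted p = 0.000127). It was lowest at ZT15 and highest at ZT3 in all 3 genotypes. GLS2 (1 of 2) peaked at ZT 18.9 (0.97, adjusted p = 0.0012), also in rx3 strong larvae, where its level was low. cndp2 peaked at ZT 2.8 (0.58, adjusted p = 0.00229).

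aspa had 6.88, 4.51, 6.52 and 9.16 CPM in rx3 strong, 7.47, 4.72, 6.69 and 7.30 in rx3 weak and 6.24, 4.98, 6.09 and 10.8 in wild type larvae, with a peak at ZT 21.4 (0.94, adjusted p = 0.00232). rimkla had 115.8, 132.8, 146.9 and 104.4 CPM in rx3 strong, 105.8, 123.7, 128.0 and 101.6 in rx3 weak and 112.8, 191.6, 144.9 and 95.7 in wild type larvae, with a peak at ZT 11 (0.64, adjusted p = 0.00351). So in the fit shared by the 3 genotypes the enzyme that cleaves acetylaspartate peaked in the night and the enzyme that joins it to glutamate late in the day. The single libraries did not all follow this. rimkla was highest at ZT15, in the night, in both mutants and at ZT9 in wild type larvae. aspa was highest at ZT3, in the day, in rx3 weak and at ZT21 in the other genotypes. The other members called were asns, gpt2l, lap3, gfpt2, ckbb, agmat, PRODH2, p4ha1b and nos2a, the last from 3 to 29 counts a library. Without ZT3 or without ZT15, 10 of the 47 genes were called, and 2797 of 22653 or 3180 of 22545 genes in all.

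**Figure D4:**
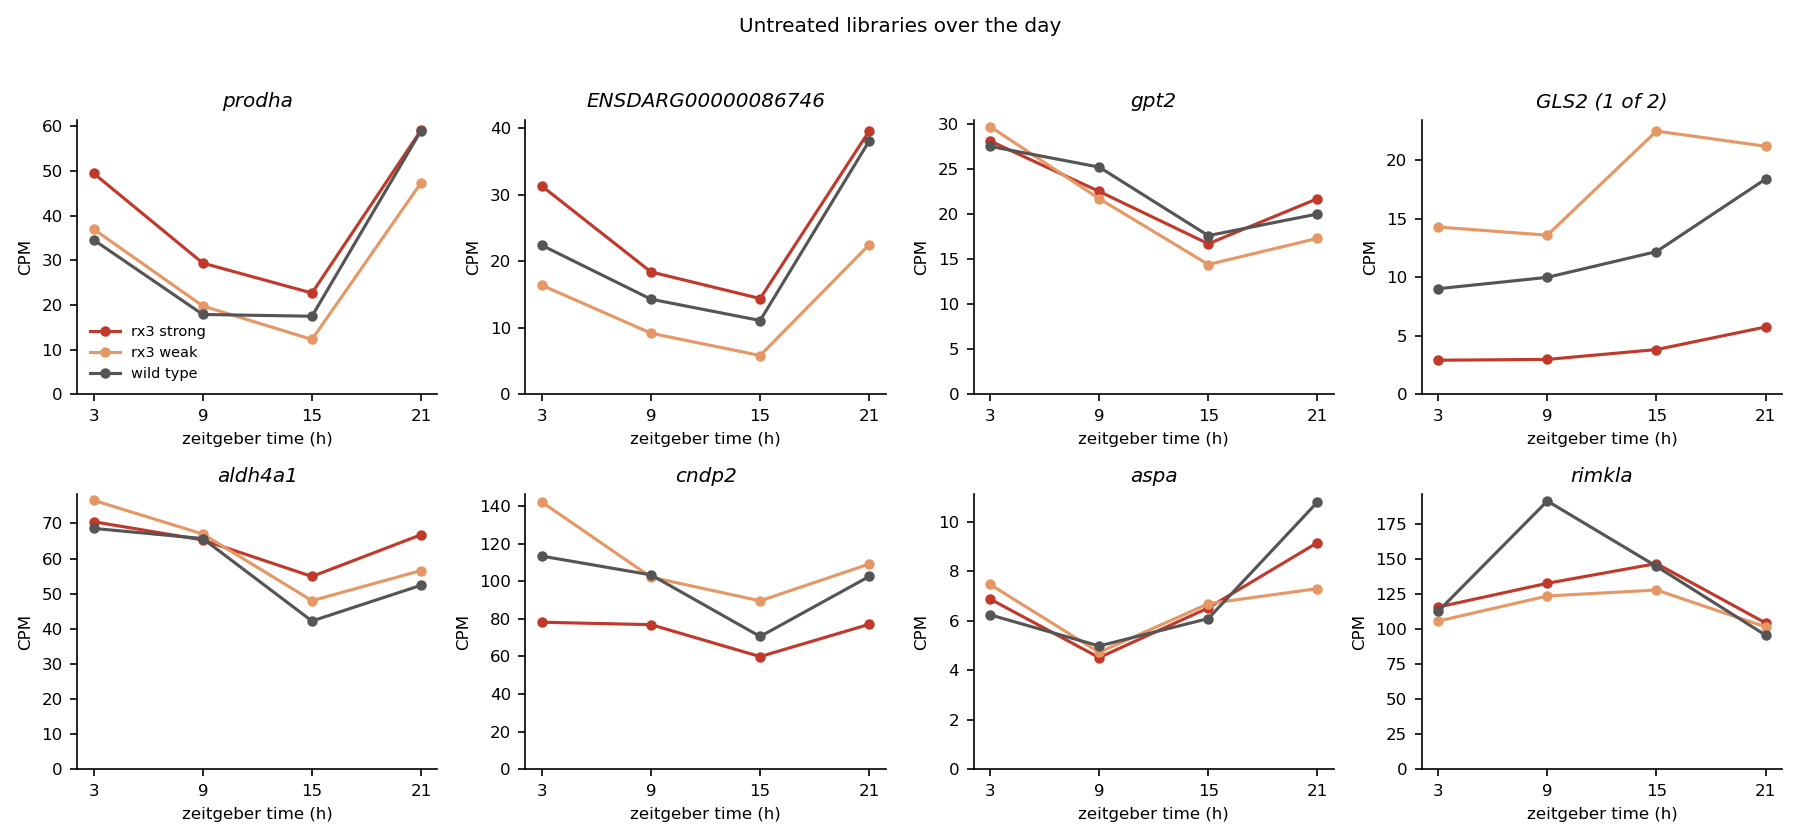
CPM (y axis, from 0) over zeitgeber time (x axis, h) of the 8 genes with the smallest p for a common rhythm, in untreated rx3 strong (red), rx3 weak (orange) and wild type (grey) larvae, 1 library per point. prodha and ENSDARG00000086746 are highest at ZT21 in all 3 genotypes, and GLS2 (1 of 2) is lowest at ZT3 and highest at ZT21 in rx3 strong, below the other genotypes throughout.

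A difference in rhythm between rx3 strong and wild type larvae was called for 0 of the 47 genes, and 0% of all 22845 genes tested, by edgeR. At an unadjusted p under 0.05 there was 1 member, zgc:163121, and 656 genes in all, and the DESeq2 likelihood ratio test called 0 members and 6 genes. These fits give each genotype its own rhythm, with 1 library per genotype and time point. Little is then left to measure the spread, so the lack of calls does not show that the rhythms were alike. Under DEX a common rhythm was called for 4 of the 47 genes, ckbb, oat, glsa and nos2a, against 5.33% of all genes. Of these, nos2a was high in the rx3 strong ZT9 library alone. Without the rx3 strong ZT9 library 1 member was called, without the wild type ZT3 library 3, and without the wild type ZT21 library 5. Among them 1, 2 and 3 belonged to the 4 of the main fit, and 576, 487 and 1370 genes were called in all. Without ZT3 in both genotypes 3 members and 459 genes were called, and 0 of the 3 belonged to the 4. With time point as a factor 13 members and 2936 genes were called. oat ranged 1.05 on the log2 scale with a peak at ZT 2.5 (adjusted p = 0.0305), and was highest at ZT3 and lowest at ZT15 in both genotypes under DEX.

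The study sorted genes by choosing among 15 harmonic regression models of the untreated libraries by the Bayesian information criterion (BIC), a choice that gives no p-value. Of the 47 genes 43 were expressed, with a mean variance-stabilised value of at least 6. A model at a BIC weight of at least 0.3 was given to 32 of these. For 29 of the 43 expressed members it was a rhythmic model, against 13926 of all 19605 expressed genes. Affected genes, with a rhythm that is lost or altered in rx3 strong, numbered 8 of the 43 expressed members, against 31% of all 19605 expressed genes. They were gad2 and oat, fitted with no rhythm in rx3 strong, and aldh4a1, glud1b, gpt2l, gpt2, lap3 and zgc:163121, fitted with an altered one. The edgeR test for a common rhythm in the untreated larvae called aldh4a1, gpt2l, gpt2 and lap3. It did not call gad2 (adjusted p = 0.499), oat (0.104), glud1b (0.203) or zgc:163121 (0.771). That test assumes the same rhythm in all genotypes. With the corrected Akaike criterion there were 3, and 1132 over all genes.

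For aldh4a1 the relative amplitude (highest less lowest over the mean of values on the linear scale) was 0.225 in rx3 strong, 0.433 in rx3 weak and 0.438 in wild type larvae. For oat it was 0.221, 0.361 and 0.546 in the same order of genotypes, and for gad2 it was 0.0534, 0.198 and 0.198. It was also lower in rx3 strong than in wild type larvae for glud1b (0.0878 against 0.154), gpt2l (0.189 against 0.27) and lap3 (0.164 against 0.318), and higher for gpt2 (0.456 against 0.393) and zgc:163121 (0.464 against 0.332). For gpt2, lap3 and zgc:163121 the model gave rx3 weak a rhythm of its own too, so their altered rhythm was not particular to rx3 strong. Their relative amplitudes in rx3 weak were 0.646, 0.391 and 0.162. The model with 1 rhythm shared by all 3 genotypes held 7 members, namely prodha, ENSDARG00000086746, GLS2 (1 of 2), PRODH2, agmat, cndp2 and p4ha2. The share of all genes in this model was not counted. Of the 8 affected members 3 met the study's rescue criteria under DEX (gad2, aldh4a1 and oat), against 42.9% of all affected genes. For aldh4a1 the DEX libraries were given 1 rhythm for both genotypes with a BIC weight of 0.871. Its relative amplitude was 0.579 in rx3 strong and 0.562 in wild type larvae. gad2 was also given 1 rhythm, with a weight of 0.579. Its highest DEX library was ZT21 in wild type larvae and ZT3 in rx3 strong. For oat the genotypes were given different rhythms under DEX (weight 0.949). It met the criteria because untreated rx3 strong was fitted with no rhythm. Since DEX was constant and the DEX libraries differ in kit, the rescue is a description of fitted models.

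Of the 51 other IDs under the same headings, 10 (19.6%) were higher and 11 (21.6%) lower in rx3 strong, against 8.4% and 10.2% of all genes tested. In rx3 weak 10 (19.6%) were higher and 2 (3.92%) lower, against 6.42% and 7.63%. Under DEX 4 (8.0%) were higher and 2 (4.0%) lower in rx3 strong among the 50 tested, against 3.4% and 4.4%. Among the 51, glula, a glutamine synthetase, was lower in rx3 strong at all 4 time points, with 364.3, 360.9, 286.9 and 342.4 CPM in rx3 strong and 484.3, 377.7, 328.4 and 436.4 in wild type larvae (-0.25 ± 0.08, adjusted p = 0.0246). glulb (-0.22 ± 0.08, adjusted p = 0.0591) and glulc (0.37 ± 0.33, adjusted p = 0.501) were not called. Of the aspartate aminotransferases, got2a passed the test in rx3 strong (-0.24 ± 0.08, adjusted p = 0.0362), while got1 (-0.27 ± 0.10, adjusted p = 0.0585) and got2b (-0.21 ± 0.08, adjusted p = 0.0777) did not. None of these 6 genes passed the test in rx3 weak, where their log2 changes were between -0.08 and 0.33.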

How the data were processed

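RNA of pooled whole larvae was sequenced in 20 libraries. According to the paper's methods and the labels, the authors aligned single-end reads to the Zv9 genome build with STAR and counted uniquely mapped reads per Ensembl gene with HTSeq; the deposited raw counts are in this unit. The deposited log2 values are the authors' DESeq2 normalised, variance-stabilised values. All per-sample columns were used. Groups came from the labels. Levels were tested on counts with edgeR 4.0.16 in R 4.3.3 (filterByExpr, TMM, quasi-likelihood test, Benjamini-Hochberg over all genes), with time point as a factor; the interaction had time within treatment. Rhythms used a cosine and sine of 24 h. The rhythm models used DESeq2 1.42.0 variance-stabilised values, made separately for untreated and DEX libraries, a BIC weight of at least 0.3 (0.5 under DEX) and a mean of at least 6. The SE of a log2 change is the coefficient over the root of the F statistic. Scripts were tested on simulated data.

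Genes are called by the study's list and a table of gene names; markers were matched by symbol in either case, the more abundant ID where 2 matched. Library values are given for the 24 members with the largest change among those called with a mean of at least 10 counts, and the 8 with the smallest rhythm p; nos2a and glud1b were added after their values were seen. The members, lists and tests were chosen with earlier results of these data known. The alternatives were DESeq2 size factors, the DESeq2 test, no filter beyond 1 read, limma 3.58.1 on the authors' log2 values, each time point left out, only the genotypes compared, time point as a factor, and, chosen after seeing the data, leaving out each of 3 DEX libraries that stood apart. Nothing says that the libraries of a group came from separate clutches, so p-values measure the spread between these libraries, which includes technical spread. Counts limit precision: a gene of 1 CPM has few reads a library.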

Additional observations from a re-analysis of the deposited data

Results flagged for a closer look

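In 140 groups of 4 libraries checked for a single value far from the rest, 9 were found. Among replicates chance alone gives about 1 in 20, and 9 of 140 is near that rate. The 4 libraries of a group are different times of day, so the rate need not hold here. In the untreated larvae these were ckbb at 236.7 CPM at ZT15 in rx3 weak (the others 313.5 to 320.9), ckmt2b at 609.8 CPM at ZT3 in rx3 weak (583.9 to 586.6), cndp2 at 59.9 CPM at ZT15 in rx3 strong (76.9 to 78.2) and gad2 at 158.6 CPM at ZT3 in wild type larvae (190.4 to 196.5). ckbb, cndp2 and gad2 were low in these libraries and ckmt2b was high. Under DEX they were nos2a at 114.7 CPM at ZT9 in rx3 strong (0.344 to 2.95) and PRODH2 at 28.6 CPM at ZT21 in rx3 strong (12.1 to 14.6), ckmt1 at 275.5 CPM at ZT3 in wild type larvae (168.0 to 183.3), and, both at ZT21 in wild type larvae, gpt2 at 31.3 CPM (19.1 to 20.8) and glsa at 19.6 CPM (8.02 to 9.61). All 5 were high values. With 1 library per group and time point, a daily change and a library that stands apart cannot be told apart within a group. Across the 3 untreated genotypes, ckbb and cndp2 were each lowest at ZT15 in all 3. gad2 was lowest and ckmt2b highest at ZT3 in rx3 weak and wild type larvae, but not in rx3 strong.

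The change between rx3 strong and wild type larvae differed with DEX for oat, by 1.19 on the log2 scale (edgeR, adjusted p = 0.00492). It also differed for gpt2, by 0.66 (edgeR, adjusted p = 0.0450), a call lost without any 1 time point. limma on the authors' log2 values called neither (adjusted p = 0.0551 for oat and 0.104 for gpt2). The untreated and the DEX libraries differ in kit as well as in treatment.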

How the results depend on the processing

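No named change turned its direction under any alternative. limma on the authors' log2 values called fewer members: 10 in rx3 strong, 6 in rx3 weak and 7 between the alleles. It called 10 for a common rhythm in the untreated larvae and 0 for the DEX comparison, the interaction and the rhythm under DEX. In the same order limma called 2754, 2008, 1516, 2086, 615, 117 and 28 of all 25590 genes. Without the count filter there were 5 members in the DEX comparison, 4 in the interaction and 7 with a rhythm under DEX. Over all genes these fits called 2176 of 31807, 751 of 32223 and 1605 of 31807. The DESeq2 test called 4 in the interaction and 14 with a rhythm under DEX, and time point as a factor gave 13 there. Over all genes these fits called 861 of 21602, 3415 of 21324 and 2936 of 23411, so the counts over all genes shifted too. The fit of the alleles alone called 7, and 1985 of all 22511 genes. Without the rx3 strong DEX ZT9 library, an alternative chosen after seeing the data, the interaction and the rhythm under DEX each had 1 member. Over all genes 321 of 24102 and 576 of 23107 were called there. Affected rhythm models numbered 3 with the corrected Akaike criterion, and 1132 over all genes, against 6072 in the main choice. The causes were not tested.

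Leaving out 1 time point in turn gave 11 to 15 members in rx3 strong, 7 to 10 in rx3 weak, 8 to 11 between the alleles, 1 to 3 in the DEX comparison, 1 to 3 in the interaction, 10 to 15 with a common rhythm in the untreated larvae and 3 to 12 under DEX. Of all 22545 to 23627 genes tested these fits called, in the same order, 2924 to 3561, 2063 to 2505, 1776 to 2224, 1072 to 1482, 150 to 381, 2745 to 3824 and 459 to 3264. Of the calls of named members under these fits, 154 were kept and 70 lost, and the same was not counted over all genes. Libraries of the same time point were already paired through the time factor, and the labels give no other replicate numbers. Low counts limit nags, nos2a, nos2b, p4ha3 and p4ha1a.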
